A study of Homo sapiens with 12 samples.

Results

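SREBP2-bound regions were compared between HCC70 cells given vehicle and HCC70 cells given XY018, to describe where in the genome, and at which genes, SREBP2 regions were called with vehicle and not with the antagonist. The members are all regions of the 2 SREBP2 peak lists on chromosomes 1 to 22 and X, 187141 of the 684829 regions that the 6 immunoprecipitated libraries of the series hold. They comprise 117441 regions with vehicle and 69700 with XY018. These lists are permissive, since the lowest −log10 p given by the peak caller was 2.01 in both. Of their regions, 74.2% with vehicle and 73.3% with XY018 had a q of at most 0.01. The study reports fewer SREBP2 sites in these cells, at a stricter threshold that it calls high-confidence. A vehicle region that overlapped an XY018 region by at least 1 bp is called kept, and any other vehicle region is called lost. HCC70 is an established human cell line from a triple-negative breast carcinoma, grown here in RPMI medium with fetal bovine serum. The first group received vehicle and the other XY018, a compound that antagonises the nuclear receptor RORγ, for 24 h at 5 µM according to the labels, whereas the methods of the study give a lower dose. Both groups share the cell line, the serum-containing medium and the SREBP2 antibody, and each consisted of 1 library, so no difference between them has a replicate check and no p-value was computed. Intervals in the text are 95% intervals and cover counting error only. They are exact for shares (Clopper-Pearson), for fragments (Poisson) and for the ratio at a single promoter (binomial), and are normal approximations for medians and for differences averaged over classes.

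SREBP2, encoded by SREBF2, is a membrane-bound transcription factor that is held in the endoplasmic reticulum by SCAP and INSIG proteins when sterols are plentiful. When sterols are scarce, it travels to the Golgi, is cleaved by the site-1 and site-2 proteases (MBTPS1 and MBTPS2), and its N-terminal part enters the nucleus. There it binds sterol regulatory elements (SREs) in the promoters of genes for cholesterol synthesis and uptake, such as HMGCS1 and SQLE, usually beside general factors such as NF-Y and SP1.

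The sequences at summits, the positions of highest signal, are shown first, because base composition separated kept from lost regions even among regions of like strength. Each run is centred on a summit, is read in the direction of the named gene from hg19, and has every CpG dinucleotide in capitals. CACNA1B (chr9:140772394-140772514, plus strand), which encodes the pore of the N-type calcium channel, and PRKAR1B (chr7:751794-751914, minus strand), which encodes a regulatory subunit of protein kinase A, had among the strongest promoter regions with vehicle, and both were kept. PLS1 (chr3:142315398-142315518, plus strand), which encodes the actin-bundling protein plastin 1, TMEM190 (chr19:55888214-55888334, plus strand), which encodes a transmembrane protein, and SLC39A12 (chr10:18239826-18239946, plus strand), which encodes a zinc transporter, had promoter regions that were lost.
CACNA1B, kept: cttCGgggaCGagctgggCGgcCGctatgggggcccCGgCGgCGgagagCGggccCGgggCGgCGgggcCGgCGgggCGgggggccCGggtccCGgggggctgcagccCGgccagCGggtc
PRKAR1B, kept: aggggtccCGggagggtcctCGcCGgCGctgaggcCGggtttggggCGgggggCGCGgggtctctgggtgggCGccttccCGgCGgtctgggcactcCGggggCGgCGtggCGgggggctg
PLS1, lost: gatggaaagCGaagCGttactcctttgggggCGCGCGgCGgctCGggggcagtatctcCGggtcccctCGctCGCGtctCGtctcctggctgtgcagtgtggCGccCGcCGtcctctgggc
TMEM190, lost: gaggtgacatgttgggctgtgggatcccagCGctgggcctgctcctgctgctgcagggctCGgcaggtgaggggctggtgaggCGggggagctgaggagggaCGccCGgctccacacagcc
SLC39A12, lost: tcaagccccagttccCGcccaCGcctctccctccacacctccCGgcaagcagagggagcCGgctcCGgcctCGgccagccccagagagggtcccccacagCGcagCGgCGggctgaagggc
The kept pair held 18 and 15 CpG in these windows. The lost 3 held 15, 5 and 9 in the order printed. The kept pair also held far more vehicle fragments than the lost 3, so these windows are not of like strength. PLS1 shows that a CpG-dense promoter could be lost as well, so the series of printed windows is a guide to the medians given below and not a rule.

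The elements that SREBP2 is known to bind are shown at 2 sterol genes, because few of them lay under the called regions. Each run of 61 bases is read from hg19 in the direction of the gene, and capitals mark the match to TCACNCCAC, the letters used here for the SRE. SREBF2 (chr22:42228950-42229010, plus strand) encodes SREBP2 itself, and HMGCS1 (chr5:43313739-43313799, minus strand) encodes the enzyme that makes HMG-CoA.
SREBF2: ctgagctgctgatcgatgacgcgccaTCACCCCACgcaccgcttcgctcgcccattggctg
HMGCS1: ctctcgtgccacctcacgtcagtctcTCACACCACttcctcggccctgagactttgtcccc
At SREBF2 the element lay inside an SREBP2 region of both libraries. At HMGCS1 it lay 78 bp outside the nearest vehicle region and 176 bp outside the nearest XY018 region.

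The libraries were of like depth. The genome-wide background, in fragments piled up at a position, was 1.03 with vehicle and 1.21 with XY018, and corresponded to 5.56 and 5.92 tags per kb. The weakest region called at that background held 5 fragments in both libraries, and the median region held 10 and 11 fragments. Lost regions made up 60.2% of the vehicle list (70711 of 117441), and XY018-only regions 29.8% of the XY018 list (20800 of 69700). These shares are the background for every class below. The share called lost depended on the lists compared. In the deposited lists 39.8% of vehicle regions were kept, against 60.3% with q of at most 1e-05 in both and 62.2% with lists of equal length. In breast cell markers, which serve here only as promoters and do not type a cell, the basal genes EGFR and FOXC1 kept a promoter region, KRT14 with 11 fragments lost its region, and KRT5, KRT17 and TP63 had none in either library. The luminal genes ESR1, PGR, GATA3, FOXA1, KRT8, KRT18 and KRT19 all kept a region.

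SREBP2 regions close to transcript starts were kept more often than distant regions. With the summit under 250 bp from a start, 75.5% of 18233 vehicle regions were kept (74.9 to 76.1%). The kept share was 55.8% at 250 to 1000 bp, 35.2% at 1 to 5 kb, 29.3% at 5 to 10 kb and 25.3% at 10 to 50 kb. It was lowest over 100 kb from any start, at 19.1% of 2283 regions (17.5 to 20.7%). The median distance to a start was 1273 bp for kept, 6750 bp for lost and 9537 bp for XY018-only regions.

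Promoter windows, taken as the 1000 bp before and 100 bp after an annotated start, held 29059 vehicle regions, of which 71.0% were kept (70.5 to 71.5%). Of the 37357 distal regions, over 10 kb from any start, 24.5% were kept (24.1 to 25%). By the place of the summit itself, 68.7% were kept in promoters, 65.8% of 8468 in coding exons, 53.9% in exonic untranslated sequence and 46.8% in non-coding exons. Introns kept 29.2% of 50020 and intergenic sequence 26.1% of 29936. Coding exons thus stood next to promoters, well apart from the introns that surround them.

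Much of this order went with the strength of the regions. Strength was taken as the vehicle fold enrichment, the summit pileup over the local background, in 10 classes of equal size. All vehicle regions, when weighted to the fold make-up of the promoter regions, were kept at 67.2%, against 71.0% observed. Weighted to that of distal regions they were kept at 26.3%, against 24.5% observed. Averaged over the 10 classes, promoter regions were kept 6.47 percentage points more often than distal regions (5.89 to 7.05), and more often in 10 of 10 classes, against 46.5 points without classes. With regions also divided into 10 classes of GC content, the difference was 1.25 points (0.673 to 1.83).

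**Figure D1:**
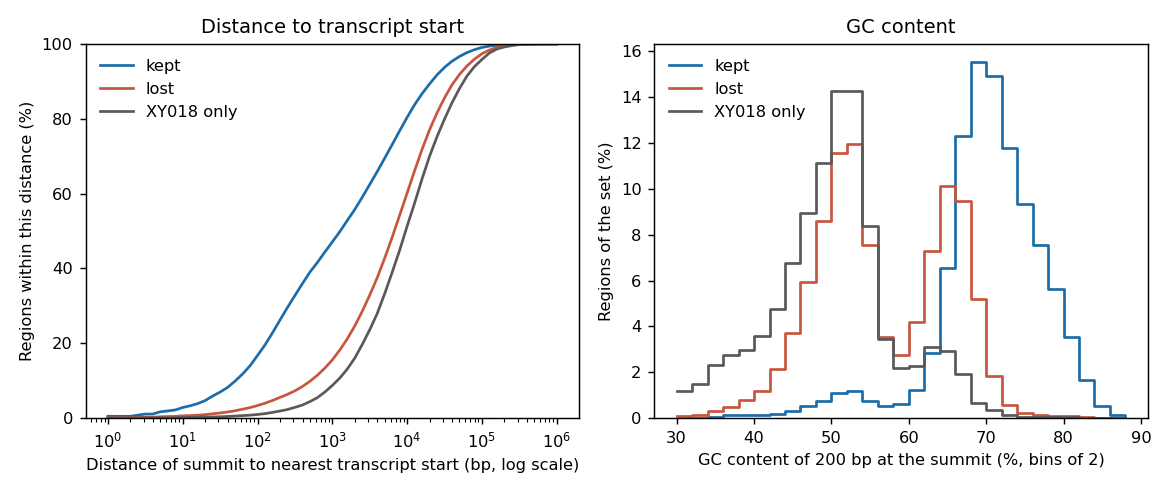
Left, share of SREBP2 regions (percent) whose summit lies within a given distance (bp, log axis) of the nearest transcript start, for kept and lost vehicle regions and for regions called only with XY018. Right, GC content of the 200 bp at the summit (percent, bins of 2), as a share of each set. Kept regions have a median GC content of 70.5%, lost regions one of 54.5% with a second group near 65%, and XY018-only regions one of 50%.

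GC content also separated kept from lost regions. It was counted in the 200 bp centred on the summit, and its median was 70.5% in kept, 54.5% in lost and 50% in XY018-only regions. Of regions under 60% GC, 6.53% of 45991 were kept (6.31 to 6.76%), and of those at 60% or over, 61.2% of 71450 (60.8 to 61.6%). The change lay between 60 and 75%. The kept share was 9.18% at 55 to 60%, 21.3% at 60 to 65%, 51.3% at 65 to 70% and 89.2% at 70 to 75%. It reached 97.4% of 8383 regions at 75 to 80%. Below 60% the share was nearly flat, between 5.46 and 9.18% in all 4 classes.

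The lists were also of unequal make-up in the reverse direction. Of the 20800 XY018-only regions, 88.6% were under 60% GC, as were 60.8% of the lost and 6.43% of the kept regions. Below 45% GC the XY018 list was no shorter than the vehicle list, with 5346 against 5165 regions, but 388 of the vehicle regions were kept. At 75 to 80% GC the lists held 8329 and 8383 regions in the same order, and 8164 of the vehicle regions were kept. The shorter XY018 list therefore came from regions between 45 and 75% GC.

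The GC order remained within strength classes. The most GC-rich tercile of vehicle regions (67.5% GC or over) was kept in 84.8% of cases and the least GC-rich tercile (55% or under) in 6.03%. Averaged over the 10 fold classes the difference was 21.9 points (17.0 to 26.8), and it was positive in 9 of the 10. It was 23.1 points among promoter regions alone and 19.3 points among distal regions alone. In the sixth fold class, with a median fold of 4.70, the kept share was 7.89% at 50 to 55% GC, 29.8% at 65 to 70% and 52.3% at 70 to 75%. Below 60% GC the shares within a class followed no single direction. In the strongest class 99.9% of regions were kept, and there was little room for a difference. The same split by place gave 9.63, 49.7 and 94.8% kept in promoters under 60%, at 60 to 70% and at 70% GC or over, and 6.35, 38.5 and 89.3% outside promoters.

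**Figure D2:**
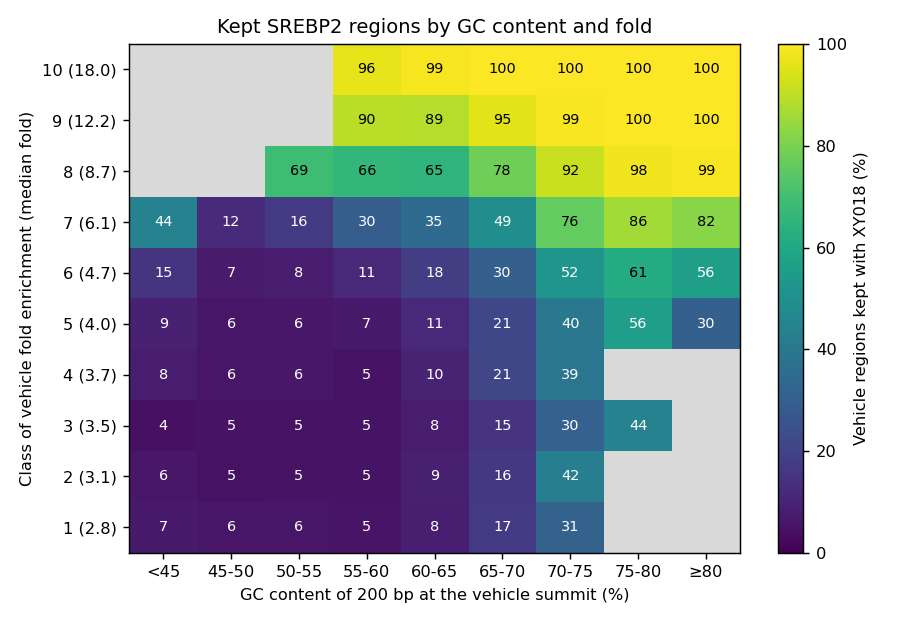
Share of SREBP2 vehicle regions kept with XY018 (percent, colour and printed value) by GC content of the 200 bp at the summit (horizontal axis) and by class of vehicle fold enrichment (vertical axis, 10 classes of equal size with the median fold in parentheses). Grey cells held too few regions to give a share. In all 10 rows the share rises from 60 to 65% GC to 70 to 75%, but not over the whole range, since in the seventh class it falls from 44.1% under 45% GC to 11.7% at 45 to 50%, and in the fifth class from 55.6% at 75 to 80% to 30.4% at 80% or over. In the class with a median fold of 4.70 it goes from 7.89% at 50 to 55% GC to 52.3% at 70 to 75%.

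The libraries of the other antibodies showed GC gradients in the same direction but of other sizes. With RORγ, the receptor XY018 antagonises, 16.9% of vehicle regions were kept under 60% GC, 64.2% at 60 to 70% and 96.1% at 70% or over. With H3K27ac, a histone mark of active promoters and enhancers, these shares were 62.3, 72.0 and 93.5%. The corresponding SREBP2 shares were 6.53, 41.2 and 92.5%. At 70% GC or over, the kept shares of the 3 antibodies thus lay within 4 points of each other. The H3K27ac lists hold only part of longer call sets. With 1 library a group, a GC difference between libraries and one between treatments cannot be told apart.

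CpG dinucleotides followed the GC content. The kept share was 8.99% where observed over expected CpG was under 0.2, 41.5% at 0.4 to 0.6 and 84.9% at 1.0 or over. CpG-rich promoters, with at least 50% GC and an observed over expected CpG of at least 0.6, kept 86.2% of 18690 regions, and other promoters 43.7% of 10369. Within fold classes the difference was 8.02 points (7.21 to 8.83), in the same direction in 10 of 10. Outside promoters, 65.1% of CpG-rich and 22.7% of other regions were kept.

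Promoters of protein-coding genes kept more of their regions than promoters of non-coding genes. Of vehicle regions in protein-coding windows, 74.0% of 23204 were kept. The share was 62.4% of 3437 in windows of lncRNA genes alone, 61% of 1761 in those of pseudogenes alone and 37.1% of 496 in those of small RNA genes alone. Where a protein-coding and an lncRNA window overlapped at the region, as at divergent promoters, 86.8% of 3167 were kept. Within fold classes protein-coding regions were kept 1.65 points more often than lncRNA regions (0.622 to 2.67). With GC classes added, the interval included 0 (0.482 points, −0.525 to 1.49), and with kept regions defined by summits within 100 bp of each other the difference was −3.08 points, so its direction depended on that definition.

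Strength itself was the other divide. Regions of 5 to 7 vehicle fragments were kept in 5.94% of cases, those of 8 to 10 in 13.2%, those of 11 to 14 in 34.9%, those of 15 to 19 in 66.7% and those of 20 to 29 in 89.7%. The median was 24 fragments in kept and 8 in lost regions, beside a weakest call of 5. For 46.5% of the lost regions the vehicle summit held 5 to 7 fragments, within 2 of that weakest call, where a modest drop and a missed call cannot be told apart. By width, 5.01% of regions at the smallest width of 185 bp and 99.4% of those of 1000 bp or over were kept. By chromosome the kept share ran from 31.2% on chromosome 13 to 52.0% on chromosome 4.

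Strong regions were seldom lost. Of 31167 vehicle regions with at least 20 fragments, 1509 (4.84%) were lost, and these had a median GC content of 66.5%, against 72.0% in the kept. Their local background was also higher, at a median of 2.03 fragments against 1.46. The 5 lost regions with the highest fold, chosen after their values were seen, lay in the coding sequence of YBX2 (34 fragments), in an intron nearest LINC02774 (41), in the promoter window of MYL9, which encodes a myosin light chain (38), near the apoptosis inhibitor gene BIRC7 (32) and in an intron nearest DLX6-AS1 (39). The lists do not give the XY018 fragments at sites without a call, so no ratio is given for them. An XY018 region lay within 1 kb of 35.3% of the 1509 lost regions, and 159 bp from the one at MYL9. It lay 1584 bp or more from the other named regions.

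Distal regions included very strong kept sites. The 5 kept distal regions with the highest fold lay 11355 to 85462 bp from the nearest start. In an intron nearest CCDC171 the summit held 116 vehicle and 103 XY018 fragments, and in an intron nearest PAX7, which encodes a muscle and neural crest transcription factor, it held 80 and 53. The intergenic regions nearest ENSG00000274727, ENSG00000288895 and STMND1 held 77 and 67, 86 and 67, and 73 and 54. All 5 also overlapped a RORγ region under both treatments. The 5 lost distal regions with the highest fold were nearest LINC02774, TRAPPC9, ENSG00000260387, ENSG00000231539 and PRKAG2, and held 33 to 42 fragments. An XY018 region lay 657 bp from the one nearest TRAPPC9 and 11075 bp or more from the others. The strongest XY018-only distal regions were weaker, with 13 to 15 fragments.

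RORγ occupancy moved with the kept share of SREBP2. Regions that overlapped a RORγ region under both treatments were kept in 84.3% of cases, and regions without RORγ under either in 8.35%. Regions of like fold from the whole list were kept at 76.0 and 15.1%. For H3K27ac the corresponding shares were 80 and 25.5%, with 75 and 27.3% at like fold. GC content differed between these classes too, and its part in them was not tested.

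Short motifs near the summit were read in the same way, within 100 bp on both strands. An XY018 region overlapped 16.8% of the regions with an SRE (TCACNCCAC) and 40.4% of the rest. Their median GC content was 52.5%, and within classes of fold and GC the difference was −0.67 points (−2.38 to 1.03). The GC box, GGGCGG, the letters bound by SP1, was present in 30.1% of vehicle regions and in 9.70% of windows 1000 bp away. Regions with it were kept in 67.8% of cases, against 27.7% without. Within classes of fold and GC the difference was 0.158 points (−0.359 to 0.676). Of the 11 motifs searched, the CCAAT box bound by NF-Y and the AP-1 site TGANTCA had kept shares of 30.4 and 23.5%, and the NRF1 site GCGCATGCG one of 70.5%. Of the 11, the interval of the difference within classes of fold and GC lay above 0 for the E-box CACGTG (1.14 points, 0.243 to 2.04) and the TEAD site GGAATG (1.31 points, 0.499 to 2.12). Without classes, 48.6% of regions with the E-box and 39.4% of the rest were kept, and 35.4% with the TEAD site against 40.1%. A match is a description of the letters and not a bound site.

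Regions called in both libraries had less signal with XY018. Summit pileups, in fragments over the genome-wide background of each library, were compared in 45127 pairs of overlapping regions, and the median XY018 to vehicle ratio was 0.608. In the 23971 pairs with at least 40 fragments in both libraries together, it was 0.616 (0.613 to 0.619), with 0.382 to 0.882 from the 5th to the 95th percentile. In 98.5% of these pairs (23608) the ratio was under 1. A ratio that the scaling sets for the whole library cannot be told apart from one at each site, and scaling by tags per kb, which takes the longer fragments of the XY018 library into account, gave 0.682, with 95.9% of the pairs (22982) under 1.

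The lower pileup was similar at all distances. By distance to a start the median ratio ran from 0.60 at 5 to 10 kb to 0.654 over 100 kb, and it was 0.625 in promoter windows and 0.609 in distal regions. Promoters and distal sites thus differed little once a region was called in both, in contrast to their kept shares. By GC content the median was 0.541 at 60 to 65%, 0.564 at 65 to 70%, 0.618 at 70 to 75%, 0.639 at 75 to 80% and 0.648 at 80% or over. From 60% GC up, the kept regions thus had a GC gradient as well. The few pairs under 60% went the other way, with medians of 0.846 in 32 pairs under 45%, 0.791 in 9 at 45 to 50%, 0.662 in 37 at 50 to 55% and 0.611 in 101 at 55 to 60%. From 60% up, among 5 classes of summed fragments it was widest in the lowest class (0.508 to 0.647) and narrowest in the highest (0.635 to 0.658). By chromosome the median lay between 0.592 (chromosome 16) and 0.643 (chromosome 2).

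**Figure D3:**
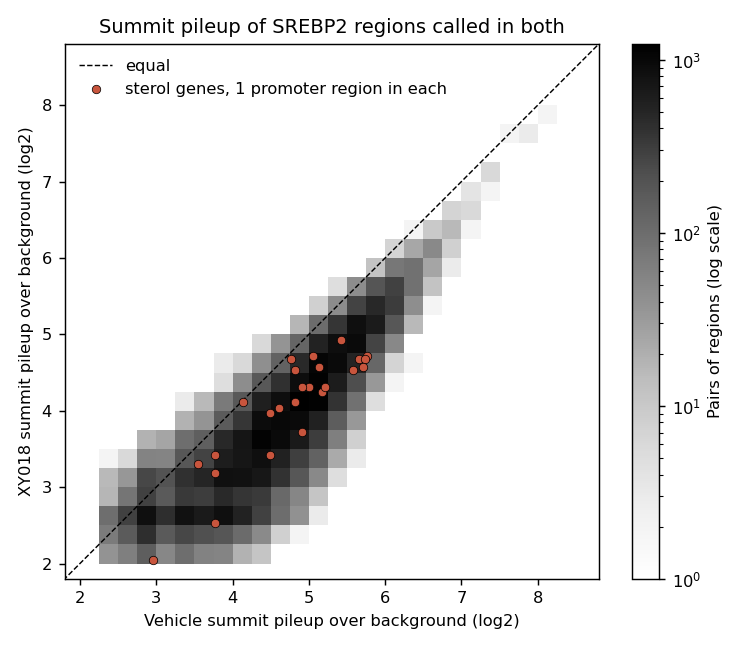
Summit pileup of SREBP2 regions called in both libraries, over the genome-wide background of each library (log2), with vehicle on the horizontal and XY018 on the vertical axis. Grey levels give the number of pairs (log scale), the dashed line marks equal pileup, and the red points are the 25 sterol genes with 1 promoter region in each library. Most pairs lie under the line, with a median ratio of 0.608 over all pairs, and the 25 sterol genes lie under it with ratios from 0.423 to 0.987, although with scaling by tags per kb the ratios of EBP and MYLIP are over 1.

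At the level of genes, 14188 of 20098 protein-coding genes (70.6%) had an SREBP2 region in a promoter window with vehicle and 12592 (62.7%) with XY018. Of the 14188, 1770 had no XY018 region in any of their windows, 12.5% (11.9 to 13.0%). In 179 of these a vehicle region was overlapped by an XY018 region just outside the window, and 1591 genes (11.2%) were without any such overlap. Among lncRNA genes, 1180 of 5491 lost all promoter regions (21.5%, 20.4 to 22.6%). The shares were 33.9% of 2066 pseudogenes and 47.4% of 789 small RNA genes. In the other direction, 174 of the 5910 protein-coding genes without a vehicle region had one with XY018 (2.94%).

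Genes that lost all promoter regions had weaker and less GC-rich ones. Their best vehicle region held a median of 11 fragments, against 32 in genes that kept a region, and had a GC content of 67.5%, against 75%. It was CpG-rich in 64.6 and 91.1% of genes. Of genes whose best region was under 55% GC, 86.0% lost it, of those at 65 to 70%, 38.0%, and of those at 75% or over, 1.04%. Genes with 1 vehicle region lost it in 17.0% of cases, those with 2 in 7.97% and those with 3 or more in 1.33%. Promoters shared with another gene were lost in 13.8% of cases and unshared ones in 12.2%. By chromosome, the share ran from 8.17% on chromosome 20 to 16.6% on chromosome 19, which carries many zinc finger genes.

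Promoter H3K27ac was present at most genes that lost SREBP2. With vehicle, 1158 of the 1770 genes (65.4%) had an H3K27ac region in a promoter window, and 1103 of these had one with XY018 as well. Among the 12418 genes that kept SREBP2, 85.5% had H3K27ac with vehicle. RORγ was present with vehicle at 30.8% of genes that lost SREBP2 and at 93.1% of those that kept it. Of the 545 former genes, 275 (50.5%) were without a RORγ region with XY018, against 400 of 11563 (3.46%) of the latter. Of the lost genes without RORγ with vehicle, 212 had it with XY018, so the number with RORγ was 545 with vehicle and 482 with XY018. Of the kept genes without it, 367 gained it, and their number was 11563 and 11530. Strength and GC content differed between these genes too, and their part in this difference was not tested.

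The 10 protein-coding genes with the highest vehicle fold among the 1770 were of the kind with an XY018 region at the edge of the window. At PLA2G2C, a secreted phospholipase gene, the vehicle summit held 77 fragments and the overlapping XY018 region outside the window 50. At POU2F1, which encodes the factor OCT1, these were 60 and 41, and at NFYA, which encodes a subunit of NF-Y, 47 and 21. The others were ENSG00000285982, KCNV1, NES, HYCC1, SSR1, MEPCE and PRAM1. A move of the region boundary past the window, and not the absence of a call, set their class.

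Among the 1591 genes without such an overlap, the 10 with the highest vehicle fold, a set chosen after the values were seen, held 22 to 34 vehicle fragments. PLS1 had the most, with 34 (23.5 to 47.5). CCN4, which encodes a WNT-induced matrix protein, had 30, TMEM190 29, SMG9, of the nonsense-mediated decay machinery, 28, and UQCC4, an assembly factor of respiratory complex III, 25. SLC39A12 and RNASEH2A, the catalytic subunit of ribonuclease H2, had 24 each. KIFC1, a minus-end-directed kinesin, had 23, and SOAT2, which esterifies cholesterol, and KRTAP12-3, a hair keratin-associated protein, had 22 each. H3K27ac regions were called with both treatments at 7 of the 10, and TMEM190, SLC39A12 and KRTAP12-3 had none in either. The strongest such lncRNA genes were ENSG00000291054 with 30 fragments, SNHG16, a small nucleolar RNA host gene, with 24, and PELO-AS1 with 22.

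At protein-coding promoters called at 1 site in each library, with at least 40 fragments in sum, the ratio was under 1 at 4455 of 4501, or at 4320 with scaling by tags per kb, and its median was 0.626. It was lowest at IGSF10, an immunoglobulin superfamily gene, with 37 vehicle and 9 XY018 fragments and a ratio of 0.206 (0.0874 to 0.434). At the divergent promoter of AIDA and BROX, 33 fragments stood against 9 (0.231). At EIF2B5, a subunit of the guanine nucleotide exchange factor for eIF2, 42 stood against 12 (0.242), and at PRKG2, which encodes a cGMP-dependent protein kinase, 36 against 11 (0.259). The highest ratio was at PARM1, with 16 against 31 fragments (1.64), and its interval of 0.870 to 3.21 included 1. SNTG1, DAO, OLIG3 and PSMG1 followed with 1.22 to 1.25, and their intervals also included 1.

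The strongest kept promoters had 64 to 101 XY018 fragments. CACNA1B held 130 fragments with vehicle and 101 with XY018, a ratio of 0.658 (0.502 to 0.859). PRKAR1B held 111 and 74, TPPP, which encodes a tubulin polymerization factor, 108 and 97, ZDHHC11B 104 and 82, and PXDNL 76 and 64. ZDHHC11B has a close paralog next to it, so its values are uncertain. In all 5 the XY018 count was the lower.

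Genes that gained a promoter region had weak ones, with a median of 7 XY018 fragments and 56.2% GC. By fold, the strongest included RABIF with 32 fragments, HOXB3 with 26, RGS7BP with 19 and MAJIN with 21, and each was again overlapped by a vehicle region outside the window. Of the 137 genes without such an overlap, LIMA1, which encodes an actin-binding protein that also takes part in cholesterol absorption, had 14, ASTL, an egg-specific protease, and UNC5CL 11 each, and GLTPD2 and PIWIL3, a germline Argonaute protein, 10 each. These were chosen after their values were seen.

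Sterol genes, in 4 lists of 63 genes, had vehicle promoter regions at 56, of which 4 were lost. CYP51A1, lanosterol demethylase, held 35 vehicle fragments, and an XY018 region with 30 fragments overlapped that vehicle region outside the window. SOAT2 held 22 (13.8 to 33.3), GPAM, the acyltransferase that starts glycerolipid synthesis, 17 (9.90 to 27.2), and NR1H3, which encodes the oxysterol receptor LXRα, 5 (1.62 to 11.7). NR1H3 was thus at the weakest level that was called. No gene of the 4 lists gained a region.

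Cholesterol biosynthesis genes lost 1 of 18 (5.56%, 0.141 to 27.3%), regulators of SREBP and of uptake 0 of 13, fatty acid synthesis 1 of 15 and LXR and efflux genes 2 of 10. All these intervals included the share of all protein-coding genes. In the 25 sterol genes with 1 promoter region in each library, the ratio was under 1 in all 25, with a median of 0.616 and a range of 0.423 to 0.987. Scaling by tags per kb left 23 of the 25 under 1, with EBP (18 and 21 fragments) at 1.09 and MYLIP, a ubiquitin ligase for lipoprotein receptors (28 and 31), at 1.04. The median over all single protein-coding pairs was 0.616 as well.

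The sensors of the pathway were examined by gene. INSIG1, which retains SCAP in the endoplasmic reticulum, held 44 and 37 (ratio 0.712, 0.447 to 1.13), and SCAP had a ratio of 0.699 (0.360 to 1.34). SREBF2 held 49 and 28 (0.484, 0.293 to 0.785). Of these, the interval excluded 1 only at SREBF2. Each interval, that of SREBF2 among them, included 0.616, the median over all single protein-coding pairs.

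Enzymes of the pathway were read in the same way, and each interval given here included the same median of 0.616. IDI1, isopentenyl diphosphate isomerase, had a ratio of 0.477 (0.297 to 0.754), and SC5D, sterol desaturase, 0.437 (0.223 to 0.823). EBP, sterol isomerase, was highest at 0.987 (0.501 to 1.97). FASN, fatty acid synthase, held 41 and 35 fragments at its strongest region with 5 regions in each library, and SCD, stearoyl-CoA desaturase, 18 and 13 at regions that lay apart. Among efflux genes, ABCA1 had a ratio of 0.478 (0.223 to 0.985) and ABCG1 one of 0.817 (0.468 to 1.42).

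SRE letters were present in few sterol promoters and seldom under SREBP2 regions. The promoter windows of the 63 genes held 21 matches at 15 genes. A vehicle region covered 3 of them, at FASN, at FDFT1, squalene synthase, and at SREBF2, and its summit held 44, 21 and 49 fragments. An XY018 region covered the same elements, and its summit held 27, 12 and 28 fragments. These counts belong to the summits and not to the elements. In the same order, the vehicle summits lay 312, 283 and 665 bp from the element. The XY018 summits lay 959, 63 and 361 bp from it. Among all protein-coding genes, 4311 (21.4%) had a match in a promoter window. Of those with a vehicle region, genes with a match lost all regions in 11.4% of cases and genes without in 12.8%.

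In all, 46 gene lists, the sterol lists among them, were read beside the 12.5% of all protein-coding genes. Of them, 22 had a higher and 24 a lower share of lost genes, 8 had an interval wholly above 12.5% and 3 one wholly below it. With q of at most 1e-05 the share of all genes was 16.5%, and 34 of the 46 lists stayed on the same side of the share of all genes. With windows of 5000 bp, 36 did. When each list was set beside genes of like vehicle fold, the interval of 1 list, keratin-associated proteins, lay above that share and that of no list below it. The lists are ordered by these shares in the plot of gene lists.

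**Figure D4:**
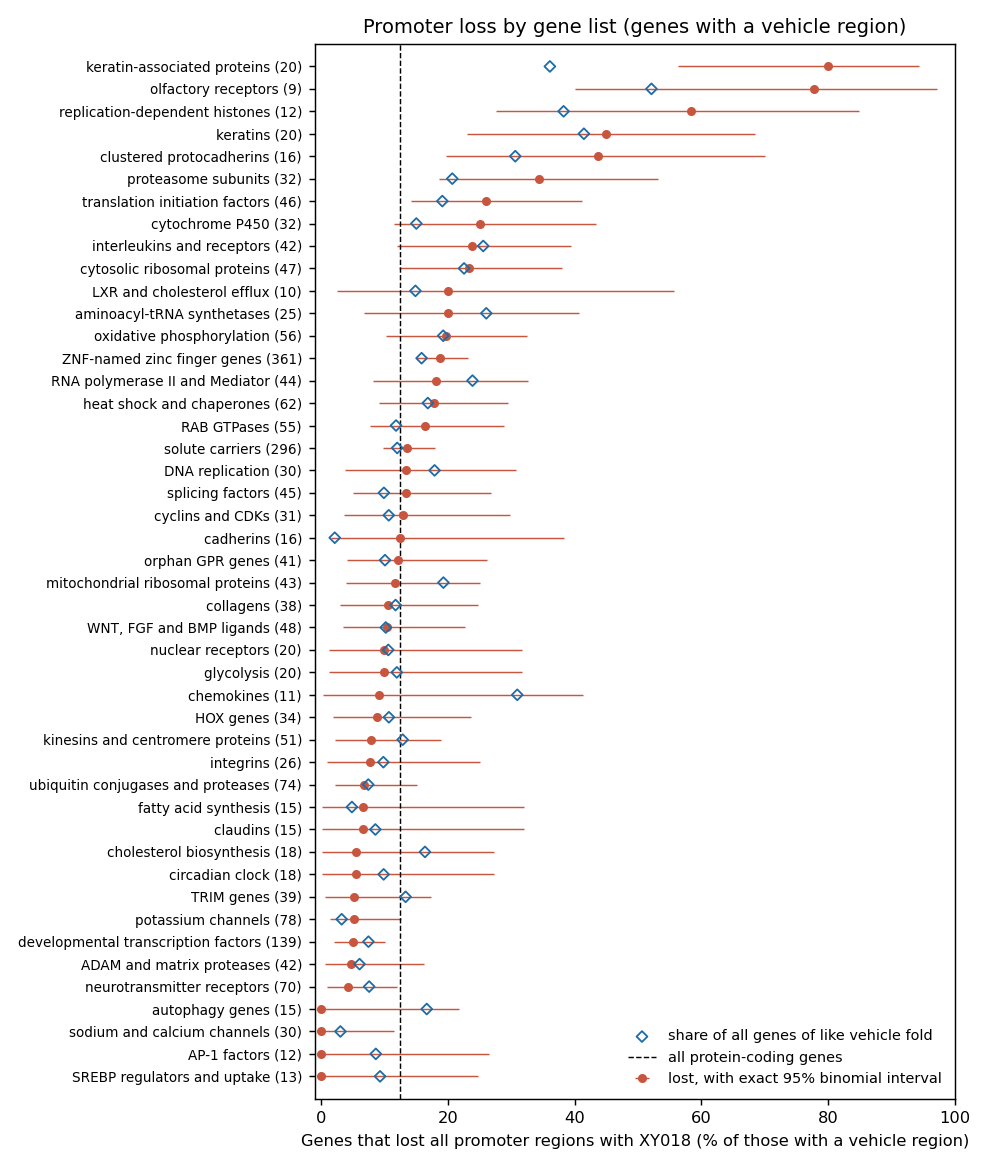
Share of the genes of each list that lost all promoter SREBP2 regions with XY018 (percent of those with a vehicle region, number in parentheses), with exact 95% binomial intervals. Blue diamonds give the share in all protein-coding genes weighted to the same vehicle fold, and the dashed line the 12.5% of all 14188 genes. Keratin-associated proteins stand at 80% with a diamond at 36.1%, and cholesterol biosynthesis at 5.56% with one at 16.4%. At like fold and like GC content, which is not drawn, these shares are 46.7 and 11.5%.

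Keratin-associated proteins and olfactory receptors had the highest shares, followed by replication-dependent histones. Of 20 keratin-associated protein genes, which form the matrix of hair, 16 lost all regions (80%, 56.3 to 94.3%). The share was 36.1% at like fold and 46.7% at like fold and like GC content. With windows of 5000 bp to either side the share of the keratin-associated protein genes was 41.5% (26.3 to 57.9%). KRTAP12-4 held 26 vehicle fragments and KRTAP12-3 22. In 12 of the 16 no XY018 region overlapped even outside the window. These genes lie in tandem clusters and are close paralogs, so neighbouring members are not independent, and tags may be shared among them. Keratins lost 9 of 20 (45%), with KRT33A at 15 and KRT32 at 14 fragments, olfactory receptors 7 of 9 (33.3% with q of at most 1e-05) and clustered protocadherins 7 of 16 (43.8%, but 4% with windows of 5000 bp). At like fold the share was 41.5% for keratins, 52.1% for olfactory receptors and 30.6% for clustered protocadherins.

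Housekeeping lists lay on both sides of the share of all genes. Replication-dependent histones lost 7 of 12 (58.3%, with 38.3% at like fold and 87.5% with q of at most 1e-05), among them H2AC21 with 16 fragments and the linker histone H1-1 with 13. Proteasome subunits lost 11 of 32 (34.4%, 18.6 to 53.2%, 20.7% at like fold, and 17.5% with windows of 5000 bp), among them PSMD4, a ubiquitin receptor of the regulatory particle, with 27 fragments, and PSMC5, an ATPase of its base, with 13. Translation initiation factors lost 12 of 46 (26.1%, with 19.1% at like fold), among them EIF3H with 21 and EIF3G with 15. Cytosolic ribosomal proteins lost 11 of 47 (23.4%, with 22.6% at like fold), among them RPL31 with 18, RPS23 with 16 and RPLP0 with 9, and the interval of 12.3 to 38.0% included 12.5%. Mitochondrial ribosomal proteins lost 5 of 43 (11.6%, with 19.3% at like fold), or 34.2% with q of at most 1e-05. At that threshold 16.5% of all protein-coding genes lost all regions. Median folds of these lists were 5.62 to 10.5, under the 12.5 of all genes.

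Lists of energy metabolism, immune, zinc finger and transporter genes were read in the same way. Oxidative phosphorylation lost 11 of 56 (19.6%, with 19.3% at like fold). With q of at most 1e-05 the share was 32.7%, where all genes lost 16.5%. The lost genes included the ATP synthase genes ATP5MF with 18 and ATP5MG with 16 fragments and the synthase inhibitor ATP5IF1 with 25. Glycolysis lost 2 of 20, the lactate dehydrogenases LDHA with 10 and LDHB with 6. Interleukins and their receptors lost 10 of 42 (23.8%, with 25.6% at like fold), among them IL12B with 14, IL7 with 13 and IL5 with 12. ZNF-named zinc finger genes, many of which encode transcriptional repressors, lost 68 of 361 (18.8%, 14.9 to 23.3%, with 15.9% at like fold), of which 58 were without any overlap. ZNF627 and ZNF747, with 29 fragments each, and ZNF33A, with 28, were overlapped outside the window. Solute carriers lost 40 of 296 (13.5%, with 12.0% at like fold).

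Lists of developmental and neuronal genes, with median folds of 13.8 to 15.8, were among the lowest. Developmental transcription factors lost 7 of 139 (5.04%, 2.05 to 10.1%, with 7.47% at like fold, and 0.676% with windows of 5000 bp), neurotransmitter receptors 3 of 70 (4.29%) and potassium channels 4 of 78 (5.13%). Sodium and calcium channels lost 0 of 30, which allows a share of up to 11.6%. AP-1 factors lost 0 of 12 and autophagy genes 0 of 15. Among circadian clock genes 1 of 18 lost its promoter region.

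Cell cycle lists lay on both sides. DNA replication genes lost 4 of 30 (13.3%), GMNN, the inhibitor of replication licensing, with 21 fragments, GINS3 with 15, POLA2 with 13 and ORC3 with 6. Cyclins and their kinases lost 4 of 31, among them CDK1, the mitotic kinase, with 16 fragments and an overlap outside the window, and kinesins and centromere proteins 4 of 51, among them KIF24 with 21. Heat shock proteins and chaperones lost 11 of 62, among them CCT2, a chaperonin subunit, with 19. None of these intervals excluded 12.5%.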

How the data were processed

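Per the labels and the methods of the study, single-end reads of 50 bp were aligned to hg19, and MACS2 2.1.0 is listed in the submitters' processing notes as the peak caller. The methods name BWA as the aligner and the processing notes Bowtie2. The peaks of each library were deposited as a list of their own. The authors deposited for each peak a fold enrichment (a ratio, summit pileup plus 1 over local background plus 1), a −log10 p, a −log10 q and a summit offset. The 12 libraries of the series include inputs, which were not used here.

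The regions compared, the gene lists and the motifs were chosen with earlier results of these data known. From fold and −log10 p, the Poisson model that MACS uses gave the summit's whole number of fragments and its local background, with a tolerance of 0.05 of the step between neighbouring whole numbers, which 99.7% of vehicle and 99.6% of XY018 regions met. The value of local background found most often stood for the whole genome, and the smallest width, 185 and 205 bp, for the fragment length. Regions were paired for ratios where each was the other's best overlap. GENCODE 44 lifted to GRCh37 (hg19) gave transcripts. Sequences were read from the GRCh37 genome with pysam 0.24.0. Computations used python 3.11.15, pandas 2.3.3, numpy 2.4.6 and scipy 1.17.1, and the recovery of fragments and the class averages were tested on simulated data. Differences in kept share were averaged over 10 classes of vehicle fold. Left out were 55 vehicle and 36 XY018 regions on chromosome Y. A gene lost all promoter regions when no XY018 region overlapped any of its windows.

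Named were the sterol genes that lost or gained regions with further sterol genes, the 10 protein-coding genes and 5 lncRNA genes lost with the highest vehicle fold, up to 3 lost genes per list by fold, the 5 lowest and 5 highest promoter ratios, the 5 gained and 5 kept promoters and the 5 lost and 5 kept distal regions with the highest fold. Others were chosen after their values were seen, and some genes that these rules name are not reported here. Alternatives were q thresholds, equal list lengths, other overlap rules, other windows, other classes and another scaling.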

Additional observations from a re-analysis of the deposited data

How the results depend on the processing

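With 1 library per group, no library could be left out in turn. No paired analysis was possible because each group had only 1 library. Of 66 alternative settings of 11 results, 26 left the value within its interval or within 1.5 times the count, 39 moved it and 1 turned its direction. The causes were not tested.

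With q of at most 1e-05 in both lists, there were 51241 vehicle and 32180 XY018 regions, and 60.3% were kept. Promoter minus distal was then 7.90 points, CpG-rich minus CpG-poor promoters 11.3, protein-coding minus lncRNA 2.96, genes that lost all promoter regions 16.5%, genes that gained one 59, and the median ratio 0.626. With q of at most 0.01, 47.1% were kept, promoter minus distal was 7.05 and CpG-rich minus CpG-poor 9.17 points. With lists of equal length, 62.2% were kept, promoter minus distal was 7.08 and the GC difference 28.1 points, 9.04% of genes lost all regions and 274 gained one. With an overlap of at least 50% of the shorter region, 38.4% were kept and promoter minus distal was 5.79 points. With summits within 100 bp, 29.7% were kept, and the differences were 0.884 points for promoter minus distal, 9.39 for GC, 2.51 for CpG and −3.08 for protein-coding minus lncRNA, the only change of direction.

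Without classes of fold these 4 differences were 46.5, 78.8, 42.5 and 11.5 points. With classes of −log10 p, promoter minus distal was 5.74. With windows of 5000 bp it was 3.33, 11.4% of genes lost all regions and 328 gained one, and with protein-coding starts alone it was 9.01. GC counted over 1000 bp gave 16.0 points. Scaling by tags per kb gave a median ratio of 0.673. Other values came from alternatives chosen after seeing the data, 1.25 points for promoter minus distal and 0.482 for protein-coding minus lncRNA with GC classes added, 29.2 for GC within classes of pileup, and 0.616 for the ratio in pairs of at least 40 fragments. So did the 11.2% of genes lost without any overlap.

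Of the 46 gene lists, 43 stayed within their interval at q of at most 0.01, 40 at 1e-05 and 41 with windows of 5000 bp, where keratin-associated proteins went to 41.5%, proteasome subunits to 17.5% and clustered protocadherins to 4%. Many of these intervals are wide. In the same order, 40, 34 and 36 lists stayed on the same side of the share of all genes at that setting. At 5 to 7 fragments a region is at the limit of what was called, so lost there means not called, not absent.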

Other observations

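Some values lie outside the comparisons above. Among the other lists, 8 of 32 cytochrome P450 genes lost all promoter SREBP2 regions (25%, with 15% at like fold). The share was 11.1% with q of at most 0.01 or 1e-05, and that of all genes at 1e-05 was 16.5%. The lost genes included CYP27B1, which activates vitamin D, with 15 vehicle fragments. Aminoacyl-tRNA synthetases lost 5 of 25 (20%, with 26.1% at like fold), among them SARS1 with 22 fragments. RAB GTPases lost 9 of 55 (16.4%, with 11.8% at like fold), among them RAB29 with 21. Cadherins lost 2 of 16, CDH13 with 26 and CDH5, the endothelial cadherin, with 24. TRIM genes lost 2 of 39 and ADAM and matrix proteases 2 of 42, among them MMP1 with 6.

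XY018-only regions, which were weak, differed in make-up from the vehicle list. Their median was 7 fragments and 214 bp, and 36.6% of them passed a q of 0.01, against 74.2% of all vehicle regions. An SRE match lay within 100 bp of the summit in 3.41% of them, in 3.35% of lost and in 1.02% of kept regions. A CCAAT box lay there in 16.2, 12.4 and 8.23%, in the same order. No cause of these differences was tested.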
